A study of Mus musculus with 3 samples.

Results

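The miRNAs of exosomes released by hypoxic mesenchymal stem cells (MSCs) were compared with and without GW4869, an inhibitor of neutral sphingomyelinase. The comparison set the array of exosomes from hypoxic MSCs given GW4869 (H+G-Exo) against the array of exosomes from hypoxic MSCs alone (H-Exo), chosen by the treatment in the labels, and used 2 of the 3 arrays of the study. The third array held exosomes of normoxic MSCs (N-Exo), whose values are given beside the others. MSCs are the adherent stromal cells that grow out of bone marrow. They came from wild type male C57BL/6 mice of 4 to 6 weeks and were used at passages 3 to 6 in medium with 10% fetal bovine serum. All groups were exposed for 24 h, and exosomes were pelleted by ultracentrifugation from the medium of 10 dishes. The GW4869 dose and the oxygen level are not given in the sources used here. The series' design names 3 samples per exosome type. Only 1 array per group was analysed here, so differences between them could not be checked on replicates or tested. The labels do not say whether animals or cultures were pooled.

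Neutral sphingomyelinase splits sphingomyelin in membranes and yields ceramide, a lipid that helps the inward budding of vesicles into multivesicular bodies. When such bodies fuse with the plasma membrane, these vesicles are released as exosomes, and they carry mature miRNAs, short RNAs that repress mRNAs matching their seed (bases 2 to 8). GW4869 is widely used to lower exosome release by this route, while vesicles also form by routes that do not need ceramide. MSC exosomes are known for carrying miRNAs to heart, vessel and bone cells. The arrays measured relative signal per miRNA, so fewer vesicles and less miRNA per vesicle cannot be told apart.

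Each array carried probes for 1881 mouse miRNAs. The signal of a miRNA is the background-subtracted brightness of its brightest probe, averaged over the replicate spots and then scaled, which here means division by the 75th percentile of the probes detected on all 3 arrays. An error written with ± is the SD over the spots of 1 probe on 1 array (n, the number of spots), which is technical error only. H-Exo had 586 detected miRNAs, H+G-Exo 675 and N-Exo 685. A miRNA counted as measured where it was detected on both compared arrays, as 566 of the 1881 were. It rose or fell where the scaled signals differed at least 2-fold and by more than 2 standard errors over the spots.

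Markers of the labelled cell type were present: all 22 listed MSC and fibroblast miRNAs were detected in N-Exo, and 21 were measured on both compared arrays. Both arms of miR-126a, the endothelial marker, were undetected on all 3 arrays. None of 6 neuronal miRNAs was detected in H-Exo or H+G-Exo, while the N-Exo array detected 2 of them. Of 7 muscle and heart markers 1 was measured, and the N-Exo array and the H+G-Exo array each detected 3. Of 8 blood cell markers 3 were measured, of 10 epithelial markers 3, and of 11 serum and liver miRNAs 5. Replicate spots of a detected probe had a median coefficient of variation of 14% on the H-Exo array and 13.4% on the H+G-Exo array.

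The sequences of the miRNAs that the comparison turned on are shown here 5′ to 3′, with the seed in capitals. They were taken from RefSeq (GRCm38.p6), in which 1608 of the 1881 miRNAs of the array and 489 of the 566 measured ones had an entry of the same name. The first set holds large rises, of which miR-3473a and miR-3473b overlap in sequence while their seeds differ.

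miR-3473b: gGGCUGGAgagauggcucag
miR-3473a: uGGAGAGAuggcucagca
miR-7058-5p: uAGAGGGGaggugaccguggaagu
miR-494-3p: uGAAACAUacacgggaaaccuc
miR-2137: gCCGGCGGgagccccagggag
miR-8117: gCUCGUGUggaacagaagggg
miR-423-3p: aGCUCGGUcugaggccccucagu

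The second set holds the falls that passed under all 7 scalings described below and had an entry.

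miR-7078-5p: uGUGGGUGguaggagacgcu
miR-125a-5p: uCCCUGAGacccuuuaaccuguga
miR-5100: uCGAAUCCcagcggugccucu
miR-1943-5p: aAGGGAGGaucugggcaccugga
miR-451a: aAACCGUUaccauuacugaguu

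The third set shows 2 families whose measured members all fell and share a seed, GAGGUAG in the let-7 family and AGCACCA in the miR-29 family, beside miR-210-3p, the best known hypoxia-induced miRNA.

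let-7d-5p: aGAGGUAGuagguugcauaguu
let-7e-5p: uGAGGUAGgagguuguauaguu
let-7f-5p: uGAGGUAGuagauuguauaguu
miR-29a-3p: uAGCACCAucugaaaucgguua
miR-29b-3p: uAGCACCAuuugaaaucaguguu
miR-29c-3p: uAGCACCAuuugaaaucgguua
miR-210-3p: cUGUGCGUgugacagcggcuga

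With GW4869 in hypoxia, 35 of the 566 measured miRNAs rose (6.18%) and 148 fell (26.1%) under the main scaling. The rises were led by miR-3473b, miR-3473a, miR-7058-5p and miR-494-3p, each at least 4.86-fold higher. The falls held the let-7 family, the miR-29 family and most of the miRNAs typical of MSCs. The median miRNA was lower by 0.42 on the log2 scale. Its spread ran from an interquartile bound of -1.04 to one of 0.26. The size of this median depends on how the 2 arrays are put on a common scale, and the order of the miRNAs on each array does not.

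**Figure D1:**
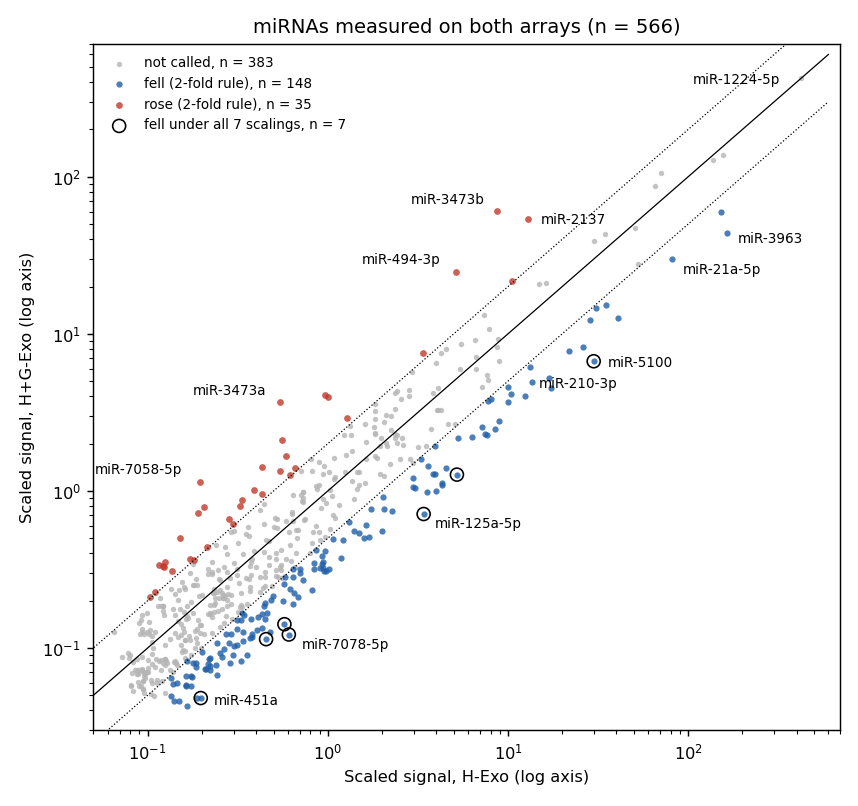
Scaled signal of each of the 566 measured miRNAs in H-Exo (x axis) and H+G-Exo (y axis), both log axes without units. The solid line marks equal signal and the dotted lines 2-fold differences. The 35 rises lie above the upper dotted line, and the 7 ringed falls passed under all 7 scalings.

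The between-array factor set how many miRNAs were counted either way. Between H-Exo and H+G-Exo the factor was 1.995 (H+G-Exo over H-Exo) under the main scaling, 1.58 for the 75th percentile over all probes and 1.5 for the median of the detected probes. It was 1.25 for the labelling spike-ins and 1.07 for the hybridization spike-ins, which are RNAs added in known amount. Rises and falls numbered 70 and 97 (12.4% and 17.1%) for the 75th percentile over all probes, 82 and 88 (14.5% and 15.5%) for the median, and 68 and 107 (12% and 18.9%) after quantile normalization. With labelling spike-ins they numbered 135 and 36 (23.9% and 6.36%), with hybridization spike-ins 172 and 16 (30.4% and 2.83%), and with no scaling 185 and 7 (32.7% and 1.24%). Rises thus made up 19.1% of the calls under the main scaling, between 38.9% and 48.2% under the 3 other scalings that centre the arrays on their own signal, 78.9% and 91.5% under the spike-ins and 96.4% with no scaling.

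**Figure D2:**
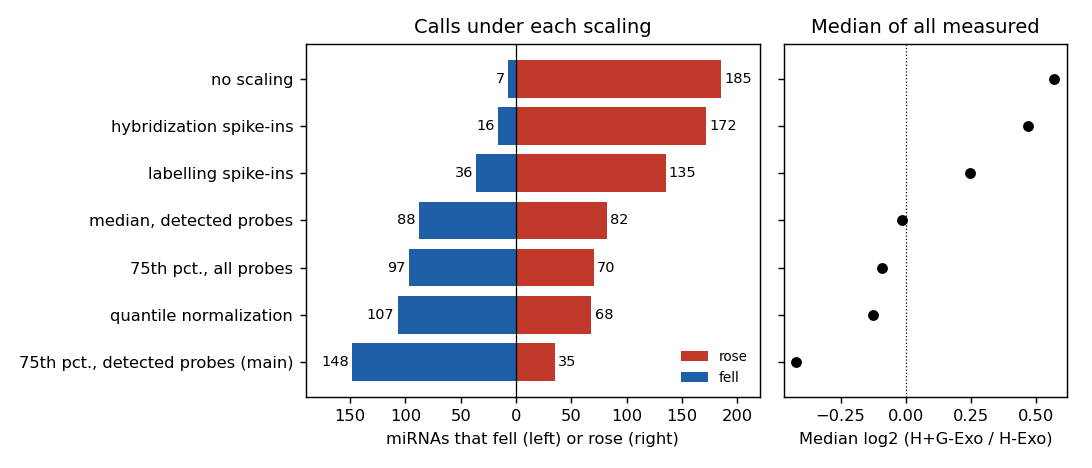
Left, number of miRNAs that fell (blue, to the left) or rose (red, to the right) in H+G-Exo against H-Exo under each of 7 scalings. Right, the median log2 difference of the 566 measured miRNAs under the same scaling, from -0.42 with the main one to 0.57 with none. The same spot signals gave mostly falls or mostly rises depending on the factor.

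Apart from quantile normalization, each of these scalings moves all signals of an array by 1 factor, so it leaves the order of miRNAs within the array as it was and shifts differences together. The main factor is the largest of the 6 such settings, no scaling included, and gives the lowest differences among them. All 35 rises passed under all 7 scalings (6.18%), while 7 of the 148 falls did (1.24%). Every other single factor raises the differences, so a rise passes under them by construction, the floor aside, while a fall need not. Only quantile normalization could have dropped a rise, so the 2 counts do not show rises to be firmer than falls. In sign alone, 185 miRNAs were higher under all 7 scalings (32.7%) and 151 lower (26.7%), and the sign of the other 230 turned with the scaling. A difference is called below by its value under the main scaling, with the range over the 7 where it matters.

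Among the rises that passed under all 7 scalings, miR-3473b had a scaled signal of 14.4 ± 0.445 for N-Exo (n = 15), 8.71 ± 0.136 for H-Exo (n = 14) and 60.5 ± 1.02 for H+G-Exo (n = 15). The H+G-Exo array was the high one, and H-Exo the lowest of the 3. Its log2 difference was 2.80 with a spot SE of 0.00871, from 2.80 to 3.79 over the 7 scalings. It moved from place 35 to place 6 in the brightness order. RefSeq places it at chr10:41670774-41670793 (GRCm38.p6, plus strand), within Ccdc162.

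For miR-3473a the scaled signal was 1.05 ± 0.0325 for N-Exo (n = 13), 0.541 ± 0.0427 for H-Exo (n = 15) and 3.66 ± 0.15 for H+G-Exo (n = 14), a log2 difference of 2.76. The pattern over the 3 arrays was that of miR-3473b. It lies on another chromosome, at chrX:162874920-162874937 on the minus strand, within Syap1. The mature sequences of miR-3473a and miR-3473b share a run of 16 bases, so their probes can share signal and the 2 rises may not be independent. miR-3473b and miR-3473e share a longer run of 18 bases, and miR-3473e gave 0.726 for N-Exo, 0.454 for H-Exo and 0.487 for H+G-Exo, a log2 difference of 0.10. The 2 detected probes of miR-3473e had 0.10 and 0.74, so its small difference rests on which probe is taken. The other measured members, miR-3473g, miR-3473c and miR-3473f, had log2 differences of 0.71, -0.31 and -0.35. In all, 2 of the 6 measured members rose and none fell, while 6.18% of all measured miRNAs rose and 26.1% fell. The family median was 0.40 against -0.42 over all measured miRNAs. The family was listed with earlier results of these data known, so its median is not separate support.

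Unscaled signals of single probes are given for both miRNAs. One probe of miR-3473b read 4776 for N-Exo, 1550 for H-Exo and 22283 for H+G-Exo, and the other 6028, 2047 and 28392. Both of its probes were thus more than 2-fold higher in H+G-Exo before any scaling. Of the 2 probes of miR-3473a, one read 439, 127 and 1717, and the other was well above background in only 20% of its H-Exo spots, so that miRNA rests on 1 probe.

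Outside that family, miR-7058-5p gave 0.140 ± 0.0342 for N-Exo, 0.195 ± 0.0483 for H-Exo and 1.15 ± 0.229 for H+G-Exo (n = 15 spots on each array). Its log2 difference of 2.56 came with the longest climb in the brightness order, from place 401 to place 145, a gain of 256 of 566 places. RefSeq places it at chr7:126368013-126368036 on the minus strand, within Lat.

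miR-494-3p belongs to the imprinted Dlk1-Dio3 miRNA cluster on chromosome 12, at chr12:109715367-109715388 on the plus strand. Its scaled signal was 5.19 ± 0.539 for N-Exo (n = 15), 5.12 ± 0.268 for H-Exo (n = 15) and 24.9 ± 0.496 for H+G-Exo (n = 14). N-Exo and H-Exo thus overlapped within the spread of their spots, and H-Exo and H+G-Exo differed by 2.28 on the log2 scale. Other measured members of this cluster lay on both sides. miR-487b-3p fell by 2.0 on the log2 scale, miR-300-3p by 1.97 and miR-541-5p by 1.83, miR-668-3p had -0.49, and miR-370-3p and miR-666-5p had 0.92 and 0.72, below the 2-fold rule. In all, 7 of the 25 listed members were measured, of which 1 rose and 3 fell. Of all measured miRNAs 6.18% rose and 26.1% fell.

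miR-2137, at chrX:72992113-72992133 within Zfp185, gave 7.63 ± 0.0902 for N-Exo (n = 12), 12.9 ± 0.393 for H-Exo (n = 14) and 54.2 ± 1.92 for H+G-Exo (n = 15). It rose by 2.07 on the log2 scale and moved from place 26 to place 8. With miR-3473b, it was 1 of the 2 miRNAs that entered the 10 brightest of H+G-Exo, in place of miR-21a-5p and miR-211-3p.

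Further rises had log2 differences of 2.08 for miR-6360, 1.97 for miR-8117, 1.96 for miR-6934-5p, 1.94 for miR-423-3p and 1.91 for miR-5121. By RefSeq, Mir5121 lies within the ribosomal protein gene Rpl13a and overlaps the small nucleolar RNA gene Snord33, so signal from that RNA and from the miRNA cannot be told apart. The next were miR-1897-3p (1.73), miR-7226-5p (1.71), miR-1931 (1.53), miR-3077-5p (1.52) and miR-1247-3p (1.5). The 35 had a median scaled signal of 0.336 in H-Exo, close to the 0.381 of all measured miRNAs, and of 0.958 in H+G-Exo. All 35 were higher in H+G-Exo than on either other array, with or without scaling. The rule fixes this against H-Exo, so only the comparison with N-Exo was open, and its share over all measured miRNAs was not counted. The smallest rises were miR-697 (2.01-fold) and miR-202-3p (2.03-fold), and just short of the rule were miR-705 (1.98-fold) and miR-125a-3p (1.96-fold).

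Agreement between probes of a miRNA was tested where several were detected. Of the 35 rises, 30 had several detected probes, and on 21 of these all probes were at least 2-fold higher. For 4 of them, miR-5099, miR-5131, miR-6386 and miR-681, the probes differed in sign under the main scaling. For miR-5099 one probe read 72.3 for H-Exo and 94.5 for H+G-Exo unscaled, and the other 66.4 and 312. The rise of these 4 therefore rests on which probe is taken.

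**Figure D3:**
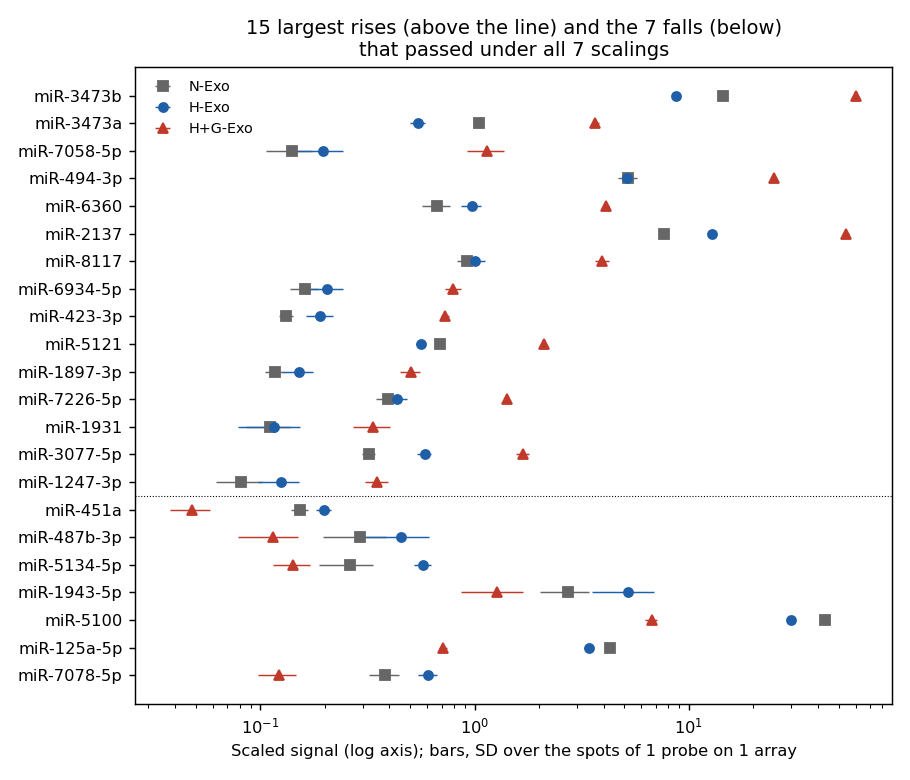
Scaled signal (log axis, no unit) on the N-Exo, H-Exo and H+G-Exo arrays for the 15 largest rises and the 7 falls that passed under all 7 scalings, with the SD over spots as bars. H+G-Exo is the highest of the 3 arrays for each of the 15 rises shown and the lowest for each of the 7 falls. Its order against H-Exo is set by the rule.

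The 7 falls that passed under all 7 scalings began with miR-7078-5p, which gave 0.383 ± 0.0605 for N-Exo, 0.607 ± 0.0623 for H-Exo and 0.122 ± 0.0242 for H+G-Exo (n = 15 each). It fell by 2.32 on the log2 scale, between -2.32 and -1.32 over the 7 scalings, and lost 214 places, from 225 to 439. It lies at chr8:117459270-117459289 on the plus strand, within Cmip.

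miR-125a-5p, a member of the lin-4 family that represses growth and differentiation genes, gave 4.29 ± 0.194 for N-Exo, 3.40 ± 0.179 for H-Exo and 0.713 ± 0.0301 for H+G-Exo (n = 15 each). It fell by 2.26 on the log2 scale, and both of its probes were lower by 1.00 and 1.26 before scaling. RefSeq places it at chr17:17830817-17830840 on the plus strand, within Spaca6.

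miR-5100 was the brightest of these 7, with 43.1 ± 1.71 for N-Exo (n = 14), 29.9 ± 1.19 for H-Exo (n = 15) and 6.69 ± 0.423 for H+G-Exo (n = 15), a log2 difference of -2.16. miR-1943-5p gave 2.71, 5.20 and 1.27, and its spots spread more widely, with an SD of 1.66 for H-Exo. miR-5134-5p gave 0.262, 0.574 and 0.142. These 3 were lower in H+G-Exo than on both other arrays.

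miR-487b-3p gave 0.290 for N-Exo, 0.454 for H-Exo and 0.114 for H+G-Exo. miR-451a, a red cell miRNA that is cut by Ago2 and not by Dicer, gave 0.153 ± 0.0138, 0.197 ± 0.0153 and 0.0480 ± 0.0103 (n = 15 each). Its H+G-Exo signal lay under 0.0653, the floor to which dim values were raised, so its log2 difference of -1.59 is understated there, and only 1 of its 2 probes was detected in H+G-Exo. The software's total signal per miRNA turned its direction, with a log2 difference of 3.51, and the cause was not tested. Of the 6 of these 7 that had several detected probes, all had each probe at least 2-fold lower under the main scaling. At the edge of the rule, the smallest falls were miR-6916-5p (2.0-fold) and miR-1949 (2.01-fold), and miR-466i-3p (1.99-fold) and miR-7237-5p (1.98-fold) stayed just outside it.

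Falls outside these 7 were more than 2-fold under some scalings only. All 148 falls were among the 151 miRNAs that were lower under all 7 scalings. For the single factors this follows from the rule, since a 2-fold fall is larger than the largest shift, 0.997 on the log2 scale. A fall sets H+G-Exo below H-Exo by the rule, so only the comparison with N-Exo was open. The share over all measured miRNAs was not counted. In 147 of the 148, H+G-Exo was the lowest of the 3 arrays under the main scaling. The exception was miR-5110, which gave 2.14 for N-Exo, 13.7 for H-Exo and 4.93 for H+G-Exo.

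Ranks in the brightness order do not depend on any of these scalings. They compare probes of differing efficiency, so a place is not an abundance, and only its change between arrays is read here. Across the 566 miRNAs the order was largely kept, with a Spearman correlation of 0.886 across miRNAs between 2 arrays that share their slide and probe set. The median miRNA moved by 43.5 places. In all, 274 miRNAs gained places (48.4%) and 287 lost places (50.7%), 61 gained more than 100 (10.8%) and 54 lost more than 100 (9.54%).

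Rank was kept within 2 percentile points by 104 miRNAs, among them 34 of the 100 brightest of H-Exo, where the median move was 21 places. Below place 300, where signals lie close together, the median move was 61 places and 41 of 266 stayed within 2 points. The 2 arrays shared 8 of their 10 brightest miRNAs and 40 of their 50 brightest.

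miR-1224-5p, a mirtron, that is, a miRNA whose hairpin is a spliced intron, kept place 1 with 210.3 for N-Exo, 424 ± 11.0 for H-Exo and 422 ± 10.2 for H+G-Exo. miR-5126 went from place 3 to place 2 with 99.5, 155 and 137, and miR-6769b-5p from 5 to 3 with 91.7, 137 and 128. These 3 thus stayed among the first 5 places. Their log2 differences lay between -0.18 and -0.01 under the main scaling, and that of miR-1224-5p ran from -0.01 to 0.99 over the 7 scalings. miR-8110 and miR-7036a-5p climbed 3 places each, from 7 to 4 and from 8 to 5, and miR-6931-5p went from 10 to 9.

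Some bright miRNAs lost few places while their signal fell. miR-3963 had 165 for N-Exo, 163 for H-Exo and 44.1 for H+G-Exo, a fall of 1.89 on the log2 scale, and went only from place 2 to place 10. miR-21a-5p, an abundant stromal miRNA linked to cell survival, had 190.4, 81.0 and 29.7 and went from place 6 to 13, a log2 difference of -1.45. miR-6366 went from place 4 to 7 with a log2 difference of -1.35. Signals at the bright end lie far apart, so a fall there cost few places.

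The largest gains began below place 400 in H-Exo and the largest losses between places 225 and 308. After miR-7058-5p, the largest gains were those of miR-1931 (500 to 262), miR-1897-3p (455 to 220), miR-1247-3p (487 to 254), miR-598-5p (493 to 263) and miR-6939-5p (489 to 267). The largest losses after miR-7078-5p were those of miR-487b-3p (260 to 448), miR-6390 (308 to 489), miR-5134-5p (231 to 409), miR-96-5p (297 to 475) and miR-547-5p (254 to 426). The miRNAs that gained more than 100 places had a median scaled signal of 0.161 for H-Exo and those that lost more than 100 had 0.334.

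Of the miRNAs typical of MSCs and fibroblasts, 13 of 21 measured fell and none rose, and 20 of the 21 lost rank. Over all measured miRNAs 26.1% fell, 6.18% rose and 50.7% lost rank. Of the 13 falls, only that of miR-125a-5p passed under all 7 scalings. The median log2 difference of this list was -1.31 against -0.42 over all measured miRNAs. miR-27b-3p lost 118 places (213 to 331), miR-125a-5p lost 108 (78 to 186), and miR-23b-3p lost 88 (131 to 219). miR-22-3p gave 8.97 for N-Exo, 3.59 for H-Exo and 1.45 for H+G-Exo. miR-214-3p, miR-222-3p and miR-24-3p changed less, with log2 differences of -0.59, -0.49 and -0.15. Only miR-24-3p gained places, from 48 to 39.

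In the let-7 family, which represses growth genes such as Lin28 and Hmga2, all 9 measured members fell and all 9 lost rank. Of all measured miRNAs 26.1% fell and 50.7% lost rank. The median log2 difference of the family was -1.62. let-7e-5p gave 15.3 ± 0.542 for N-Exo (n = 14), 8.50 ± 0.31 for H-Exo (n = 15) and 2.47 ± 0.118 for H+G-Exo (n = 15), and let-7g-5p, the least changed, gave 7.08, 3.91 and 1.94. Signals thus went down from N-Exo to H-Exo to H+G-Exo in both under the main scaling. The log2 difference of let-7g-5p, -1.01, is close in size to the 0.997 of the main factor, so it is nearly gone with no scaling. miR-98-5p, the dimmest member, lost 149 places, from 284 to 433. The members were lower under all 7 scalings, as the rule for a fall ensures for the single factors. With no scaling their median difference was -0.63, which is below the 2-fold rule. These sequences differ by few bases and can share signal on the array, so they are not 9 separate measurements.

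The miR-29 family, whose known targets include collagens, fell in 3 of 3 members, while 26.1% of all measured miRNAs fell. miR-29b-3p gave 6.85 ± 0.449 for N-Exo (n = 15), 3.96 ± 0.0603 for H-Exo (n = 12) and 0.996 ± 0.0257 for H+G-Exo (n = 13), a log2 difference of -1.99, and miR-29c-3p and miR-29a-3p had -1.58 and -1.33. The p53-induced miR-34 family also fell in 3 of 3 measured members, by 1.25 to 1.55 on the log2 scale. miR-34a-5p gave 0.260, 0.212 and 0.0737. All 6 of these lost rank, by 25 to 139 places, while 50.7% of all measured miRNAs lost rank.

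Of the miR-30 family 4 of 5 members fell, of the miR-15/16 family 4 of 6, and of the Myc-driven miR-17/92 set with its paralogs 6 of 10, against 26.1% of all measured miRNAs. The medians of these lists were -1.15, -1.28 and -1.25, against -0.42. Of the miR-30 family, miR-30b-5p turned to 2.37 with the software's total signal. In the miR-17/92 set, miR-19a-3p and miR-18a-5p fell by 1.69 and 1.67, while miR-17-5p gave 0.271 for N-Exo, 0.319 for H-Exo and 0.260 for H+G-Exo and kept its rank (313 to 308). Members of 1 primary transcript thus differed in size. None of the 21 measured members of these 3 families rose, while 6.18% of all measured miRNAs did.

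Hypoxia-responsive miRNAs fell in 9 of 12 measured members, with a median log2 difference of -1.42, and 11 of the 12 lost rank. Over all measured miRNAs 26.1% fell and 50.7% lost rank, with a median of -0.42. None of the 9 falls passed under all 7 scalings. miR-210-3p, induced by hypoxia-inducible factors in many cell types, gave 7.51 ± 0.339 for N-Exo, 13.2 ± 0.443 for H-Exo and 6.17 ± 0.243 for H+G-Exo (n = 15 each) and went from place 25 to 38. Its unscaled signals were 3133, 3108 and 2894. H-Exo was thus the high array under the main scaling. The 3 unscaled values lay close together, with N-Exo the highest, so the place of H-Exo depends on the factor. Larger falls of this list included miR-103-3p (2.01 for H-Exo, 0.555 for H+G-Exo), miR-26a-5p (0.972, 0.311) and miR-27a-3p (2.27, 0.745), whose N-Exo signals were higher still, 4.13, 3.82 and 5.17.

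Of the miRNAs earlier tied to export by neutral sphingomyelinase, miR-210-3p fell, and the 2 others measured did not pass. miR-16-5p gave 6.63 for N-Exo, 2.86 for H-Exo and 1.59 for H+G-Exo, a log2 difference of -0.85. miR-146a-5p, a repressor of inflammatory signalling, gave 1.1, 0.252 and 0.270, a log2 difference of 0.10, and gained 51 places. The 3 thus had no common direction in rank.

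Among miRNAs studied in heart repair and angiogenesis, 8 of 14 measured fell (26.1% of all measured miRNAs did) and none rose (6.18%), with a median log2 difference of -1.15. None of the 8 falls passed under all 7 scalings, and this list overlaps the MSC list. Of the markers of other cells, miR-155-5p and miR-223-3p had log2 differences of -0.51 and -0.54, near the median of all measured miRNAs, and the erythroid miR-451a fell as above. The epithelial miR-96-5p fell by 1.97, while miR-183-5p of the same cluster had -0.08. Of the serum and liver miRNAs, miR-423-3p rose and the other 4 lay between -0.43 and 0.19. Under the main scaling, signals were summed over the members that each array detected. The blood list gave 2.49 for N-Exo (3 members), 1.44 for H-Exo (3) and 0.980 for H+G-Exo (4). The epithelial list gave 1.28, 0.914 and 0.494 (3 members each), and the serum and liver list 3.65, 2.98 and 3.41 (8, 5 and 7). These sums depend on detection and on the scaling. With no scaling the median log2 differences of the measured members of these lists were 0.38, 0.15 and 0.99. The liver miRNA miR-122-5p, the lymphocyte miRNA miR-150-5p and both endothelial markers were not detected on any array. The part of serum or of other cells in these differences was not tested.

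**Figure D4:**
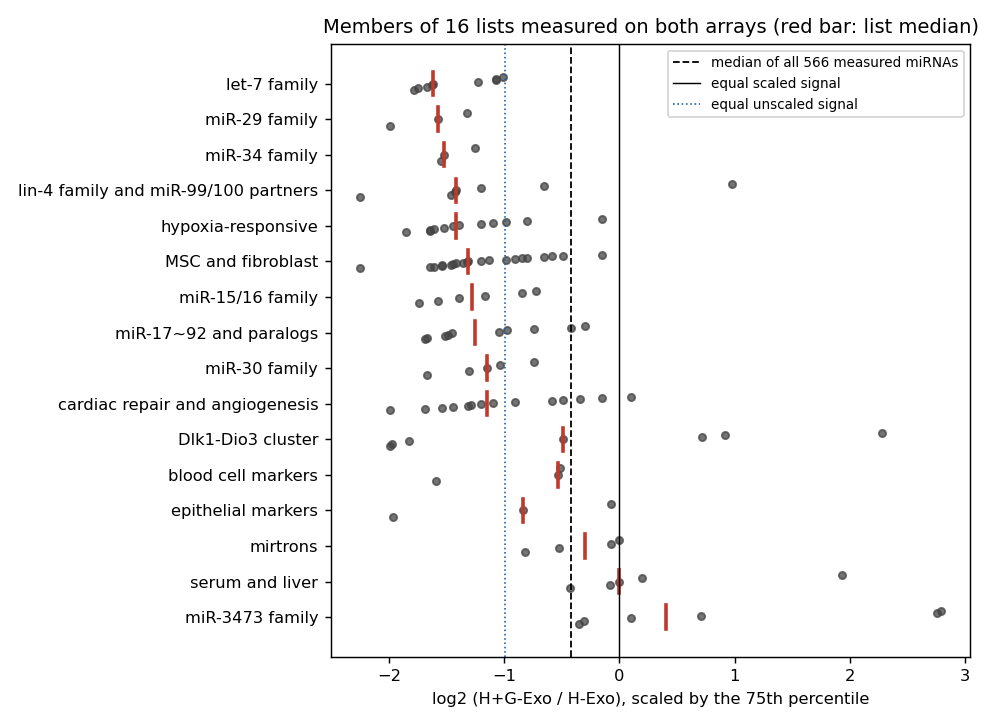
Each point is the log2 difference (H+G-Exo over H-Exo, main scaling) of 1 measured member of a list, and the red bar is the list median. The dashed line marks the median of all 566 miRNAs (-0.42). Every let-7, miR-29 and miR-34 member lies to the left of -1, while 2 miR-3473 members lie above 2.7.

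Seeds were compared beyond the listed families. Of 12 seeds shared by 3 or more measured miRNAs, 5 had all members on 1 side of the median of all measured miRNAs, each on the lower side. These were GAGGUAG (let-7, 9 members), AGCAGCA (miR-15/16, 5), ACCCGUA (miR-99/100, 3), AGCACCA (miR-29, 3) and GUAAACA (miR-30, 3). Seeds GUGGGAG and UGGGAAG had medians of 0.21 and -0.39 with members on both sides.

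The 2 arms of 1 hairpin come from 1 precursor, and 52 hairpins had both arms measured. In 27 of them both arms lay on 1 side of the median of all miRNAs. That median leaves 283 measured miRNAs below it and 283 above it, so 27 of 52 is near what unrelated arms would give. In 3 hairpins both arms fell, in none did both rise, and in none was one arm called up and the other down. Over all measured miRNAs 26.1% fell and 6.18% rose. The median gap between arms was 0.68 on the log2 scale.

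The widest gap, 3.23, was that of miR-125a, whose 5p arm fell as above while its 3p arm gave 1.00 ± 0.111 for N-Exo, 1.82 ± 0.115 for H-Exo and 3.58 ± 0.283 for H+G-Exo (n = 7 each), a log2 difference of 0.97. All 4 probes of the 3p arm were higher in H+G-Exo, by 1.96 to 2.13 before scaling. The arms thus lay on opposite sides under all 7 scalings. In the same cluster on chromosome 17, miR-99b-5p fell by 1.42 and its 3p arm had 0.23, and let-7e-5p fell by 1.78.

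The hairpins with 1 arm that rose were miR-6934 (5p 1.96, 3p -0.52), miR-1897 (3p 1.73, 5p -0.41) and miR-423. For miR-423 the 5p arm gave 1.07 for N-Exo, 1.02 for H-Exo and 1.02 for H+G-Exo, while the 3p arm gave 0.132, 0.190 and 0.727. In miR-3093 the 5p arm fell by 1.08 and the 3p arm had 0.87, but with the software's total signal the 5p arm had 0.52. Brightness cannot be compared between the arms of a pair, since they have different probes.

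Sequence composition moved with the differences. Of 64 miRNAs whose probe had a GC content under 45%, 40 fell (62.5%) and 1 rose (1.56%). Over all measured miRNAs 26.1% fell and 6.18% rose. The median log2 difference of the 64 was -1.19. The medians rose to -0.80 at 45 to under 55% (135 miRNAs), -0.40 at 55 to under 65% (180) and -0.04 at 65% and over (187). In that last bin 19 fell (10.2%) and 14 rose (7.49%), the share of rises being near that over all measured miRNAs. The medians thus rose with GC content, and the part of hybridization or labelling in this was not tested. The Spearman correlation between probe GC and log2 difference was 0.51 across the 274 miRNAs numbered below 3000 and 0.13 across the 292 later ones, over probes of the same 2 arrays. Rises had a median probe GC of 62.5% and falls 52.6%. Probes of the 9 let-7 members had 31.8 to 47.4% GC, and those of the 3 miR-29 members 36.4 to 45%. Under 55% lay 18 of the 21 MSC miRNAs and 10 of the 12 hypoxia-responsive ones. In these sets, family or list and base composition cannot be told apart. The 6 miR-3473 probes had 47.1 to 69.2%.

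**Figure D5:**
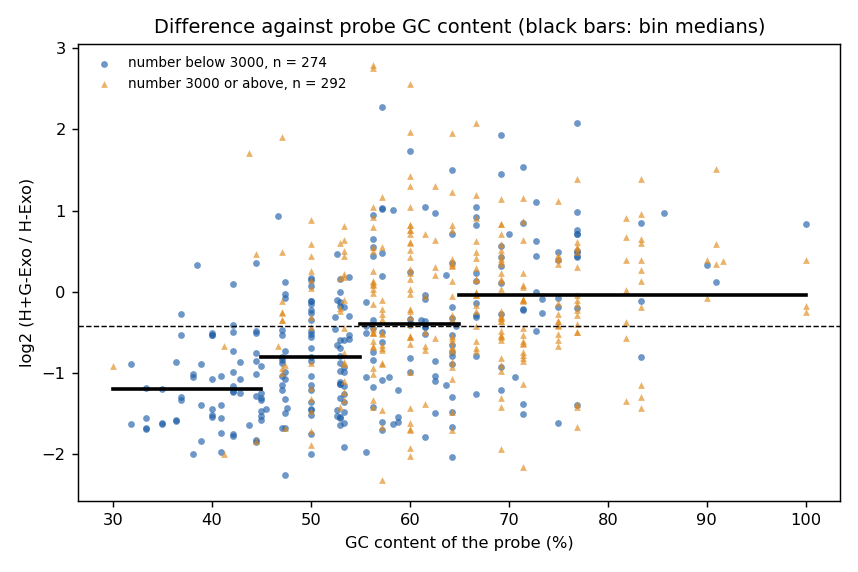
Log2 difference (H+G-Exo over H-Exo, main scaling) of each of the 566 measured miRNAs against the GC content of its probe in percent, with bin medians as black bars. Blue circles are miRNAs numbered below 3000 (274) and orange triangles the later ones (292). Bin medians climb from -1.19 to -0.04.

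The motif GGAG, reported elsewhere as a signal for loading miRNAs into exosomes through hnRNPA2B1, was searched on the given strand of the mature sequences. It was held by 14.4% of the 1608 sequences of the array and by 29.9% of the 489 measured ones. It was in 12 of the 30 rises with a sequence (40%) and in 23 of the 128 falls with one (18%), and in 2 of the 5 falls with a sequence that passed under all 7 scalings (40%). The median log2 difference was -0.02 in miRNAs with GGAG and -0.52 in those without. GGAG is itself rich in G and C, so miRNAs with and without it were also compared within GC bins: at 55 to under 65% the medians were -0.05 with and -0.47 without, and at 65% and over 0.13 and -0.19. Each bin gave the higher median to miRNAs with the motif, though under 45% only 2 held it. A match is a run of letters only.

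Rises that hold the motif (here in capitals) and are not shown above include the following.

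miR-6934-5p: uugguGGAGacagcaagggugg
miR-1247-3p: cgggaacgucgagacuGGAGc
miR-5131: cggcgccccacGGAGccccgagc
miR-3081-5p: gacuGGAGcuuGGAGcggugagc

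The motifs CCCU and GGCU were searched in the same way. CCCU was in 10.4% of measured sequences, 3.33% of rises and 9.38% of falls. GGCU was in 14.7%, 20% and 11.7%, with a median log2 difference of -0.06 in miRNAs with it and -0.47 in those without. Within GC bins these medians were -0.15 and -0.80 at 45 to under 55% (7 with the motif), 0.03 and -0.45 at 55 to under 65%, and -0.04 and -0.01 at 65% and over. Under 45%, where 3 held the motif, the order was the other way, -1.65 with it and -1.07 without. In the 2 bins from 45 to under 65% the gap was no smaller for GGCU than for GGAG, whose medians at 45 to under 55% were -0.40 and -0.86. The rises without a RefSeq entry were miR-5099, miR-598-5p, miR-6360, miR-6407 and miR-709.

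Some miRNAs were detected on 1 of the 2 arrays only, 109 for H+G-Exo and 20 for H-Exo, while 1186 were detected on neither. Detection was called on unscaled spots, and H+G-Exo was the brighter array. Its median unscaled signal over measured miRNAs was 144, against 89.5 for H-Exo, so the 2 counts are not differences in scaled signal. Their fold is given as a bound under the main scaling, its signal on the array that detected it, divided by the larger of its own signal on the other array and the floor of 0.0653. Of the 109, only 44 had a bound above 1, and 12 were at least 2-fold higher by this bound. These 12 were led by miR-125b-1-3p, the passenger arm of a lin-4 family member. It was at least 6.2-fold higher (0.00869 for N-Exo, 0.00748 for H-Exo, 0.405 for H+G-Exo). Next came miR-7681-3p (at least 3.06-fold), miR-7085-5p (3.05-fold) and miR-7219-5p (3.02-fold). Of the 20 detected only in H-Exo, all of which N-Exo detected, 2 were at least 2-fold lower by the same bound, miR-6412 (at least 2.66-fold) and miR-666-3p (2.33-fold). The least was miR-421-3p, with unscaled signals of 18.03 for H-Exo and 17.90 for H+G-Exo.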

How the data were processed

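Arrays were Agilent one-colour mouse miRNA arrays labelled with Cy3. The deposited files hold spot intensity values that the authors quantified with Agilent Feature Extraction 10.7.1.1 (per the submitters' processing notes). The processed intensity is background-subtracted and not scaled between arrays. All 3 arrays share 1 slide and 1 scan, so slide could not be a block. The labelling protocols name kits for cRNA and cDNA, so the labelling is uncertain. The deposited value table was read as log2 values (medians -3.32, -3.00 and -3.30 in N-Exo, H-Exo and H+G-Exo). No source used here names its normalization.

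Control and outlier spots were left out, and probes with over 50% of spots well above background were detected. Processing used Python 3.11.15, pandas 2.3.3 and limma 3.58.1 (normexp only) and was tested on simulated data. Members and lists were chosen with earlier results of these data known. Named miRNAs were miR-210-3p, the largest rises, falls and rank changes, those passing under all 7 scalings, the brightest, the most moved of each list and seed group, the most different arms and the largest bounds. miR-5110, miR-5099 and the miRNAs at the edge of the rule were chosen after their values were seen. Sequences, strands and host genes come from RefSeq (GRCm38.p6). The files use mm9, and no file coordinate is printed.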

Additional observations from a re-analysis of the deposited data

How the results depend on the processing

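No paired analysis was possible because each group had 1 array, and for the same reason no array could be left out. The number of rises, the number of falls, the median log2 difference and the log2 difference of miR-210-3p were, in this order, 35, 148, -0.42 and -1.10 under the main setting. They were 70, 97, -0.092 and -0.77 with the 75th percentile over all probes, 82, 88, -0.015 and -0.69 with the median, 135, 36, 0.25 and -0.43 when scaled to the labelling spike-ins, 172, 16, 0.47 and -0.20 when scaled to those of hybridization, and 185, 7, 0.57 and -0.10 with no scaling. With normexp background correction and an offset of 50 they were 17, 70, -0.28 and -0.93. Quantile normalization gave 68 rises and a median of -0.12. The software's total signal per miRNA gave 84 rises, a median of -0.12 and -0.79 for miR-210-3p, and the deposited value table gave 81, -0.080 and -0.68. Without the detection filter the median was 0.00, since most miRNAs then lie at the floor. All 35 rises were also called under each of the 6 other scalings, which the large main factor fixed in advance for all but quantile normalization. Of the 35, 31 were called with outlier spots kept, 29 with detection in every spot, 27 with the mean of a miRNA's probes and 16 with normexp. Of 111 named miRNAs, 3 reversed, all under the software's total signal, which gave 0.52 for miR-3093-5p, 2.37 for miR-30b-5p and 3.51 for miR-451a, and the cause was not tested. In H+G-Exo 32 measured miRNAs lay under the floor, where a fall is understated.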

Other observations

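Control probes that no comparison used also differed between the arrays. The probes named hur_1, hur_2 and hur_4 in the files had median unscaled signals of 39313, 339621 and 4510 in N-Exo, 17090, 175477 and 1797 in H-Exo and 12321, 141565 and 1525 in H+G-Exo. Those named hur_6 gave 23670, 12404 and 13168 for N-Exo, H-Exo and H+G-Exo, the last being 1.06-fold the second. The probes named mr_1 gave 25639, 19202 and 32465. No source used here says what these probes hybridize to. The labelling spike-ins were not alike either: dmr_285 was 1.47-fold and dmr_31a 1.06-fold as bright in H+G-Exo as in H-Exo, while the hybridization spike-ins dmr_3 and dmr_6 were at 1.08-fold and 1.07-fold.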
